A study of Homo sapiens with 16 samples.

Results

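The genes PER1, PER2 and PER3 encode the PERIOD proteins of the circadian clock. Their sites in the deposited peak lists were chosen by position: every peak in the gene or within 5 kb of it, which gave 138 of the 58586 peaks of 13 lists. PER1 had 69 of these peaks, PER2 had 40 and PER3 had 29. BMAL1 pairs with CLOCK, binds E-box motifs and activates the PER genes. The PER proteins, with the CRY proteins, return to the nucleus and repress that pair, which closes the main feedback loop of the clock. CHRONO, the product of CIART, is a further repressor of BMAL1 and CLOCK. PER1 and PER2 are also known as genes that glucocorticoids induce, and PER3 as the member least needed for the rhythm itself.

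Chromatin immunoprecipitation and sequencing used U2OS, an established line of human osteosarcoma cells, and a line named U2OS-CHRONO. How the second line was made, and whether it is a single clone, is not given in the sources used here. All 12 BMAL1 libraries came from cells given 200 nM dexamethasone, a glucocorticoid that aligns the rhythms of cultured cells. They were collected at 0, 4, 8, 12, 16 and 20 h of the study's own scale. The other library used an antibody to Myc in U2OS-CHRONO, with no time or treatment label, and its target is Myc-CHRONO per the series design. There was 1 library per line and time. The 6 times therefore served as pairs and the tests measure the spread over times. Depth is unknown, peak lists hold no expression by which the cell line could be checked, and at 6 of 6 times the list of U2OS-CHRONO was the longer one. The lists ran from 337 peaks (U2OS, 8 h) to 9391 (U2OS-CHRONO, 16 h), and the Myc list held 2487.

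Each peak carries a score of the authors, which was used only to rank peaks within a list (rank 1 is the highest score). A score of exactly 3100 was given to 12 peaks in 6 of the lists, the PER1 upstream peak of U2OS at 4 h among them. Tied peaks share the best rank within a list, and the mean rank where regions are ranked among themselves.

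The promoters are shown first because each PER gene had a BMAL1 peak over its promoter in 12 of 12 libraries, and because the letters there differ between the 3 genes. The sequences are RefSeq windows of GRCh38.p14, from 250 bases before to 50 bases after the start site, read 5′ to 3′ along the gene. All 3 genes were matched by symbol. PER3 has 2 windows, with start sites at 7784291 and 7784429. The window of the first is shown, and all PER3 distances are from that start site. Capitals mark CACGTG (the E-box), CACGTT (a variant called the E′-box) and TTATGNAA (a form of the D-box), searched on both strands. The D-box is bound by DBP, TEF, HLF and NFIL3. This form of it was added to the search after the sequences were seen, and other forms were not searched.
PER1, chr17:8152355-8152654, minus strand: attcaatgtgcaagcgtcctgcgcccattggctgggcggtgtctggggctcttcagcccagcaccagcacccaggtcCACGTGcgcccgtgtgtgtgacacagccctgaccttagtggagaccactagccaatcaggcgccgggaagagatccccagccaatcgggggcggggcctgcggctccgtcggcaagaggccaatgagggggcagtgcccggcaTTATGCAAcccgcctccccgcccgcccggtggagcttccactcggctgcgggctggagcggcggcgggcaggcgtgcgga
PER2, chr2:238288561-238288860, minus strand: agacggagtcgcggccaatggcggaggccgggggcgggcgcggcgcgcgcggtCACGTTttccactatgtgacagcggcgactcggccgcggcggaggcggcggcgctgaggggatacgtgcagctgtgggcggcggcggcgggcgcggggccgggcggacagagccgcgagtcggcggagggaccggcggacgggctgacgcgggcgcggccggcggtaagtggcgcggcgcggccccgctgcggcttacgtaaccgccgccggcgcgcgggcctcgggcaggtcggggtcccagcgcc
PER3, chr1:7784041-7784340, plus strand: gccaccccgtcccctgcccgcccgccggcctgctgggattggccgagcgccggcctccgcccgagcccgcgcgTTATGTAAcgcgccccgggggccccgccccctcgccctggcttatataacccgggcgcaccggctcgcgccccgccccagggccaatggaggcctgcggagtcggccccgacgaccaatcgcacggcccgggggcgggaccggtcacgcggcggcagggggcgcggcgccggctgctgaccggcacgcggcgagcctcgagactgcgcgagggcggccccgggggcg

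The PER1 window held 1 E-box, whose first base lay 173 bases before the start site, and 1 D-box at 30 bases before it. The PER2 window held 1 E′-box at 197 bases before the start site. In the PER3 window shown the only match was 1 D-box at 177 bases before the start site. The PER2 window also held ttacgtaa, a single letter from this PER3 match, which the pattern searched does not cover. The search thus does not show that PER2 lacks a D-box. Of 35116 promoter windows in the table, 7.26% held the E-box, 5.34% the E′-box and 3.30% the form of the D-box searched. A BMAL1 peak lay over each of the 4 marked matches in 12 of 12 libraries. The Myc library had a peak over the PER2 E′-box and the PER3 D-box, and none over the 2 matches of PER1. A match is a description of the letters and not evidence of contact.

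When overlapping peaks of the 12 BMAL1 lists were joined, the PER genes had 9 regions. Of these, 4 had a peak in all 12 libraries, against 0.796% of the 20968 regions joined in the same way over the genome. They held 126 of the 134 BMAL1 peaks at these genes. At PER1 a region reached from the promoter outward (chr17:8151038-8156000), and a separate one lay farther upstream (chr17:8156012-8157452). PER2 had a single region over its promoter (chr2:238286343-238290872), as had PER3 (chr1:7782943-7786011). The gene model of PER2 runs on to 238300065, well beyond its start site at 238288610. The PER2 peaks are thus inside the gene model and at the promoter at once.

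Broad peaks of a few libraries bridge neighbouring sites, so the regions were split into stretches that peaks of at least 6 of the 12 libraries covered. This definition was chosen after the data were seen. It gave 12 separate sites, 6 of them with a peak in all 12 libraries. A peak can reach into several sites, which then carry the same rank. The ranks given first are positions in each library's own list. Since the lists differ in length they are no comparison of the lines, for which the shared regions were ranked further on.

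**Figure D1:**
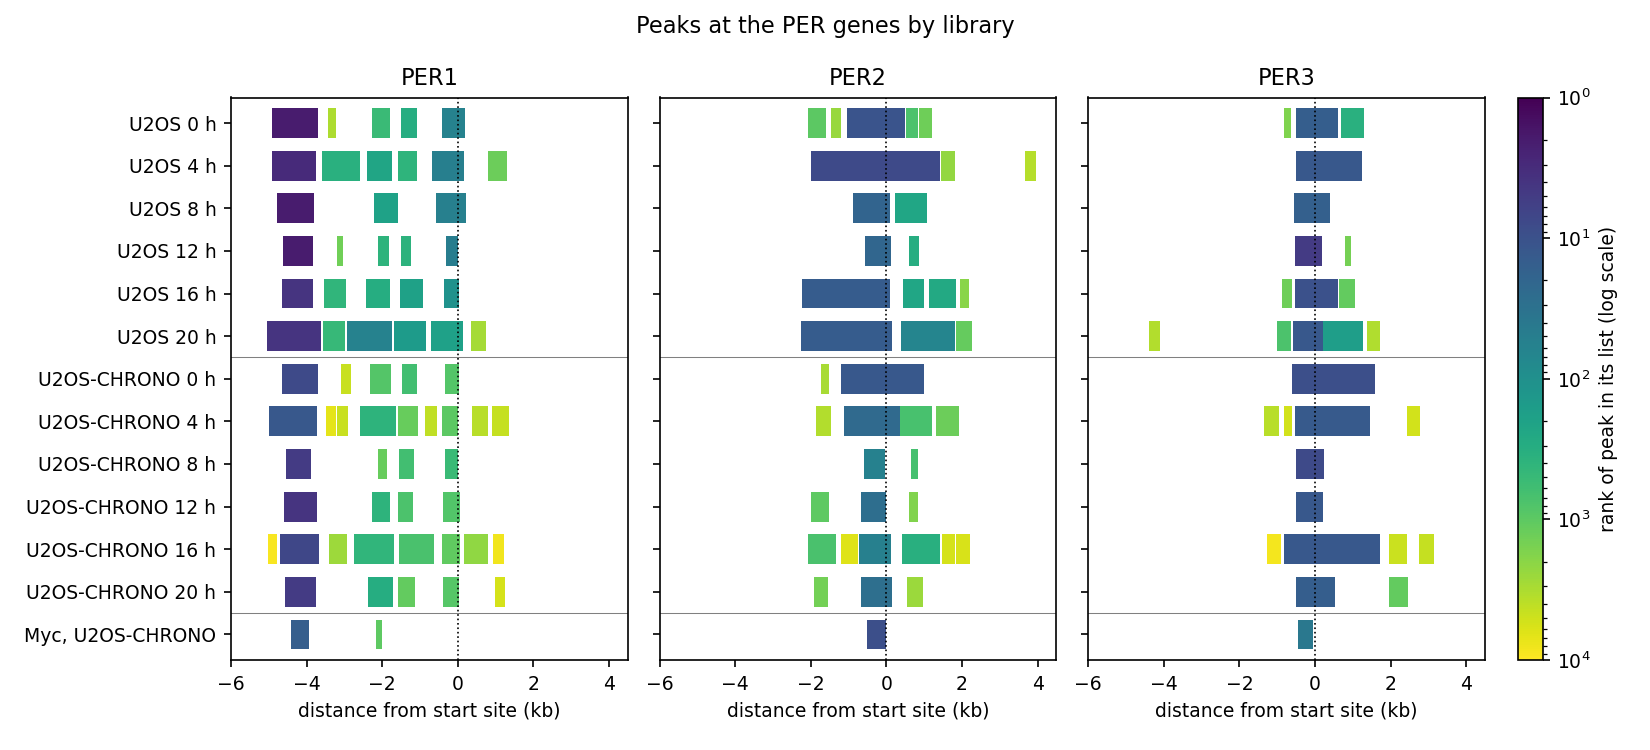
Peaks of the 13 lists (rows) at PER1, PER2 and PER3, by distance from the start site in kb along the gene (negative is upstream), coloured by rank in the list on a log scale. The darkest bars, of the highest rank, lie 4.21 kb upstream at PER1 and over or just upstream of the start site at PER2 and PER3. Of the PER1 peaks, 2 over tRNA genes beyond the end of the gene lie outside the plotted range.

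PER1 had the most extended pattern. Its strongest site was not the promoter: it was centred 4.21 kb upstream of the start site (chr17:8156139-8157095), between PER1 and the end of VAMP2, a vesicle fusion gene whose body begins 1695 bases beyond the region. The peak ranked 2, 3, 2, 2, 4 and 4 in the U2OS lists at 0, 4, 8, 12, 16 and 20 h. In U2OS-CHRONO it ranked 8, 12, 5, 4, 7 and 5. It stood near the top of every BMAL1 list, and above the PER2 and PER3 promoter sites in 12 of 12 libraries. The peak centres varied by 72.7 bases (SD, n = 12 libraries), and the stretch from 8156275 to 8156957 was common to all 12 peaks. Its sequence is not shown, since it lies outside the promoter table.

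The PER1 promoter site (chr17:8152356-8152820) stood farther down each list. In U2OS it ranked 59, 52, 54, 48, 111 and 187 from 0 to 20 h. In U2OS-CHRONO it ranked 858, 981, 513, 810, 1056 and 876. As a share of its list, the site was in the top 0.984% to 16.0% for U2OS and the top 11.2% to 21.1% for U2OS-CHRONO, ranges that overlap. The 16.0% of U2OS and the 21.1% of U2OS-CHRONO were both at 8 h, where the lists held 337 and 2429 peaks. Peaks there were 322 to 850 bp wide in U2OS and 331 to 472 bp in U2OS-CHRONO.

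Further peaks lay between the promoter and the upstream site. A site 1.32 kb upstream was called in 11 libraries, all but U2OS at 8 h, and ranked 153 to 400 in the U2OS lists (top 2.54% to 20.5%). Its ranks in the U2OS-CHRONO lists were 606 to 1194 (top 7.59% to 24.9%), so as shares of the lists the ranges overlapped. A site 2.06 kb upstream was called in all 12 and ranked 508, 226, 200, 379, 302 and 59 in U2OS. It ranked 841, 385, 1187, 384, 411 and 300 in U2OS-CHRONO. Sites 3.09 and 3.31 kb upstream were called in 7 and 6 libraries, with ranks from 351 to 6857.

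The order of the sites within PER1 differed between the lines. In U2OS the promoter site ranked above the site 2.06 kb upstream at 5 of 6 times, all but 20 h. In U2OS-CHRONO it did so at 1 of 6 times, 8 h. These orders were read within each list, were noticed in the data and are given without a test.

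At PER2 the promoter site (chr2:238288473-238289739) ranked 11, 8, 19, 20, 14 and 14 in U2OS from 0 to 20 h. In U2OS-CHRONO it ranked 12, 23, 55, 27, 54 and 28. As a share of the list the site stood higher in U2OS-CHRONO at 0, 8 and 12 h, with the top 2.26% against the top 5.64% at 8 h, and lower at 4, 16 and 20 h. The stretch from 238288642 to 238289188, just upstream of the start site, was common to all 12 peaks and holds the E′-box. The peaks ranged widely in extent, from 562 bp (U2OS-CHRONO, 8 h) to 3406 bp (U2OS, 4 h).

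Another PER2 site lay 0.73 kb inside the gene (chr2:238287528-238288231) and was called in all 12 libraries. It includes the start of LOC112268433, a long non-coding RNA gene read in the opposite direction. The promoter peak reached into it at 0 and 4 h in U2OS and at 0 h in U2OS-CHRONO, and the site then took that peak's rank of 8 to 12. At 0 h in U2OS the promoter peak met only the edge of the site, which also held a peak of its own at rank 730. In the other 9 libraries the highest peak there was not the promoter peak, with ranks from 67 (U2OS, 20 h) to 2459 (U2OS-CHRONO, 20 h). A site 1.75 kb upstream was called at 4 U2OS and 5 U2OS-CHRONO times, and at 4, 16 and 20 h in U2OS the promoter peak reached over it. A short site was called 1.17 kb inside the gene at 4 U2OS and 2 U2OS-CHRONO times.

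PER3 had the simplest pattern, with a single site at the promoter in all 12 libraries (chr1:7783763-7784914). It ranked 15, 12, 16, 5, 10 and 12 in U2OS from 0 to 20 h and 9, 13, 8, 12, 12 and 15 in U2OS-CHRONO. It was within the first 16 peaks of each list. The stretch from 7783795 to 7784491 was common to all 12 peaks and holds the whole promoter window. A second site, 0.93 kb inside the gene, was called at 5 U2OS and 3 U2OS-CHRONO times. At those 3 times, and at 4 h in U2OS, the promoter peak reached over it.

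**Figure D2:**
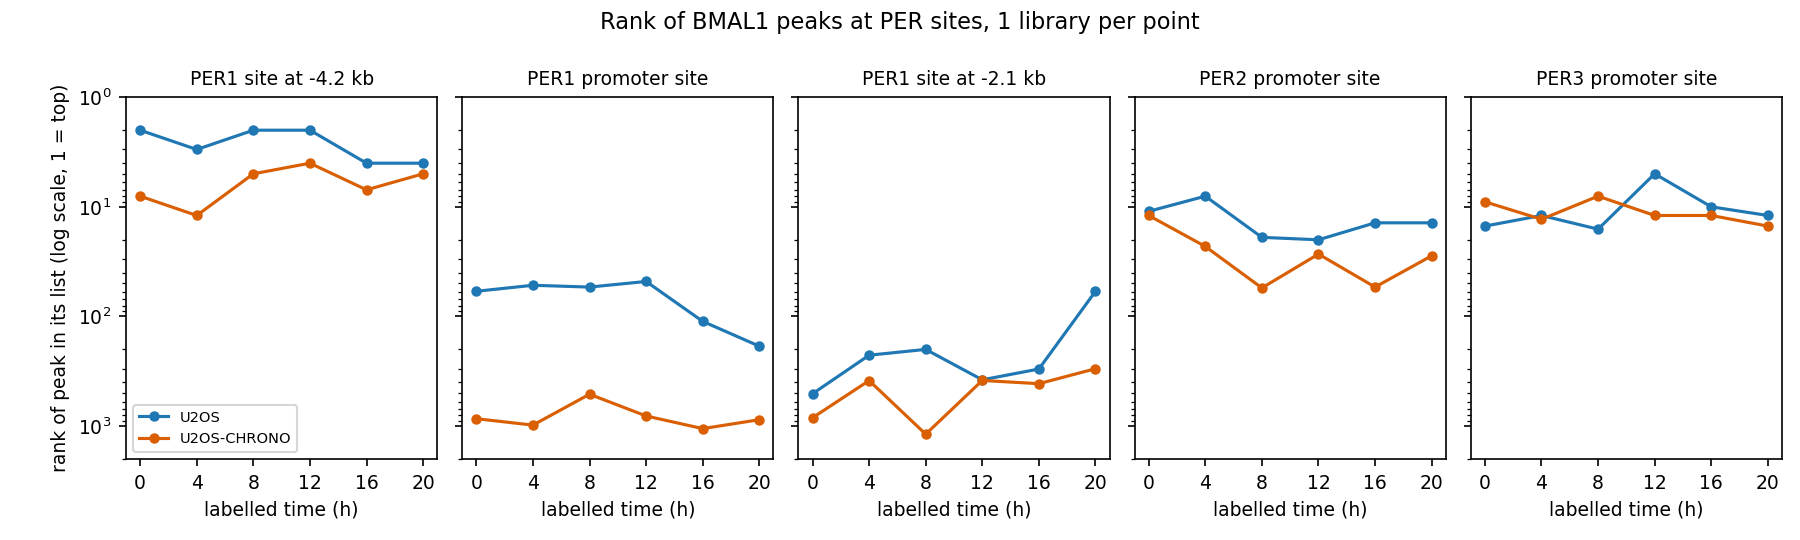
Rank of the BMAL1 peak in its list (log scale, 1 at the top) against the labelled time in h, 1 library per point, at the 5 PER sites named above each panel. The PER1 promoter site lies at ranks of 48 to 187 for U2OS and 513 to 1056 for U2OS-CHRONO and the PER3 promoter site at 5 to 16 in all 12; the lists differ in length, so the distance between the lines is not a measured difference.

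The remaining 5 regions were rare calls. They held 8 peaks, and 4 of the regions were called in 1 library each. U2OS alone had 3 regions: one over the tRNA gene TRT-AGT5-1 beyond the end of PER1 (4 h), one 3662 to 3957 bp inside PER2 (4 h), and one in VAMP3, the upstream neighbour of PER3 (20 h). U2OS-CHRONO alone had 2: one over the tRNA gene TRS-CGA1-1 beyond PER1 (16 h) and one in PER3 (chr1:7786250-7787431) at 4, 16 and 20 h. The last was the only PER region called at several times of a single line, with ranks of 1112 to 5268. All came from lists of 5287 peaks or more.

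The lines were then compared in the number of PER regions called. U2OS libraries had 4, 6, 4, 4, 4 and 5 regions from 0 to 20 h and U2OS-CHRONO libraries had 4, 5, 4, 4, 6 and 5. The means were 4.5 ± 0.84 and 4.67 ± 0.82 (SD, n = 6 times). The difference of 0.17 ± 0.98 was within the spread (two-sided exact paired permutation p = 1.00), with equal numbers at 4 of 6 times. Its sign turned with equal list sizes (-0.33) and without 16 h (-0.20). Single peaks numbered 65 in the U2OS lists and 69 in those of U2OS-CHRONO, and the difference per time of 0.67 ± 5.01 was again within the spread (exact paired permutation p = 0.75).

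Ranks in lists of unequal length cannot be compared directly between lines. The 167 regions with a peak in all 12 BMAL1 libraries were therefore ranked among themselves in each library, which gives every list the same range. On this scale both PER1 regions and the PER2 promoter stood lower in U2OS-CHRONO at 6 of 6 times, and the PER3 promoter did not. Over all shared regions 19.2% were lower at 6 of 6 times and 19.2% higher. The median difference of all was -1.92 places, and that of the 4 PER regions 8.58 places.

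The PER1 promoter region held places 54, 48, 51, 45, 87 and 54 in U2OS and 153, 135, 130, 124, 131 and 115 in U2OS-CHRONO. Every U2OS-CHRONO library ranked it below every U2OS library, as was the case for 10.2% of the shared regions. The mean moved from 56.5 ± 15.3 to 131 ± 12.7 (SD, n = 6 times), a difference of 74.8 ± 19.5 places. The two-sided exact paired permutation p was 0.031, the smallest that 6 pairs allow. Adjusted over the 167 regions by Benjamini-Hochberg it was 0.0815 by the same exact permutation test, which misses 0.05. Without 8 h, the time of the shortest list, 614 regions were shared and the difference was 241 places. With a score of at least 100 it was 9.50 places among 53 regions, and as a percentile of the whole list 4.85 percentage points. With that score limit and as a percentile the region was lower in U2OS-CHRONO at 6 of 6 times. So were 10 of the 53 regions by the first and 13 of the 167 by the second. Without 8 h only 5 pairs were left, too few for the test to pass, and no count over the 614 was run. At equal list sizes the region left the shared set, so no difference could be given there. The highest-scoring peak of the region lay at the promoter site at 5 of 6 U2OS times. In U2OS-CHRONO it lay there at 8 h alone, at 0 h 1.32 kb upstream and at the other times 2.06 kb upstream.

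The PER1 upstream region held places 2, 4, 2, 2, 4 and 4 in U2OS and 8, 12, 4, 4, 7 and 5 in U2OS-CHRONO, a difference of 3.67 ± 2.73 places. The ranges met at place 4. The PER2 promoter held places 10, 8, 19, 19, 14 and 14 in U2OS and 12, 21, 44, 25, 39 and 24 in U2OS-CHRONO, a difference of 13.5 ± 9.65 places. For both the exact paired permutation p was 0.031 and the adjusted p 0.0815. Measured instead as a percentile of the whole list, the differences turned to -0.048 and -0.59 percentage points and were within the spread. The largest gap of each was at 8 h, the time of the shortest list. PER1 upstream was then in the top 0.593% in U2OS and 0.206% in U2OS-CHRONO. For the PER2 promoter these were 5.64% and 2.26%. At the other times both directions occurred. The U2OS-CHRONO lists are longer, so an equal rank is a smaller percentile there.

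The PER3 promoter held places 14, 12, 16, 5, 10 and 12 in U2OS and 9, 13, 7, 12, 12 and 14 in U2OS-CHRONO. The difference of -0.33 ± 5.72 places was within the spread (exact paired permutation p = 0.97). The PER2 promoter site ranked above that of PER3 at 2 of 6 U2OS times and at 0 of 6 U2OS-CHRONO times.

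Split into separate sites, the 169 shared by all 12 libraries gave the same directions. Among them the PER1 promoter site moved from 66.5 ± 26.9 to 152 ± 11.1 places, a difference of 85.0 ± 25.9 (exact paired permutation p = 0.031, adjusted p = 0.0838). Of these sites 18.3% were lower in U2OS-CHRONO at 6 of 6 times, and 10.1% without overlap of the lines, as here. The site 2.06 kb upstream of PER1 differed by 9.42 ± 29.5 places and the one inside PER2 by 42.7 ± 64.6, both within the spread (exact paired permutation p = 0.59 and 0.22). The longer lists of U2OS-CHRONO moved with the line at each time. Trimmed to equal size at each time, the lists gave 3.67 places for PER1 upstream and 14.2 for the PER2 promoter among 116 shared regions. Both were lower in U2OS-CHRONO at 6 of 6 times, and the PER1 promoter region was not among the 116. Beyond this trimming the part of list length in the ranks was not tested.

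**Figure D3:**
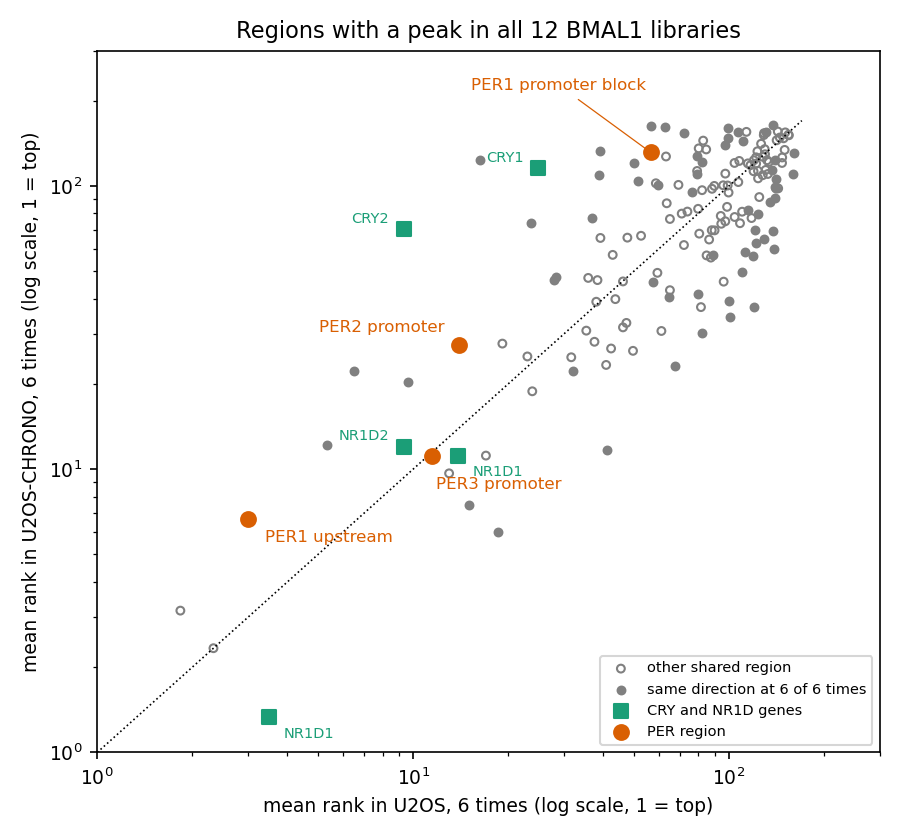
Mean rank over 6 times in U2OS (x) and U2OS-CHRONO (y), log scales with 1 at the top of a list, of the 167 regions with a peak in all 12 BMAL1 libraries. Filled grey points moved the same way at 6 of 6 times. Points above the dotted line stood lower in U2OS-CHRONO, as did both PER1 regions and the PER2 promoter, while the PER3 promoter lies close to it.

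The CRY genes, which encode the partners of the PER proteins, moved in the same direction. The CRY1 region went from 24.8 ± 9.79 to 116 ± 24.2 places and the CRY2 region from 9.33 ± 6.28 to 70.5 ± 13 (SD, n = 6 times). Both were lower in U2OS-CHRONO at 6 of 6 times with no overlap (exact paired permutation p = 0.031, adjusted p = 0.0815 for each). NR1D1, which encodes the repressor REV-ERBα, had a region that stood higher, with 3.50 ± 0.84 and 1.33 ± 0.82 places. Its second region and that of NR1D2 differed by less than the spread.

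Of the 17 other core clock genes, 7 had a peak in the gene or within 5 kb in all 12 libraries, against 0.803% of 20052 protein-coding genes. The PER genes had one in all 12 as well. Among 10 shared regions near those 17 genes, 2 were lower in U2OS-CHRONO at 6 of 6 times (CRY1 and CRY2) and 3 were higher: 1 each of NR1D1, DBP, an output activator, and BHLHE40, a repressor. The other 5 went neither way. Of all 167 shared regions 19.2% were lower at 6 of 6 times and 19.2% higher, so these small counts do not set the clock genes apart. By the median over 12 libraries of a gene's best rank, PER1 stood at 4.0, PER3 at 12.0 and PER2 at 19.5. NR1D1 (1.5), DBP and TEF (2.0 each) stood above PER1. NR1D2 (9.0) and BHLHE40 (11) fell between PER1 and PER3, and CRY2 (42.5) and CRY1 (118) below PER2. The ranges of neighbours in this order overlapped. PER1 ranged from 2 to 12, PER3 from 5 to 16 and PER2 from 8 to 55.

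The regions most like each PER region were those with the smallest mean difference in place over the 12 libraries. For PER1 upstream these were regions of TEF (2.33 places), DBP with CA11 (3.00) and NR1D1 with THRA (3.42). For the PER3 promoter they were regions of NR1D2 with NKIRAS1 (4.00), NR1D1 (4.67) and BHLHE41 with SSPN (4.83). For the PER2 promoter they were regions of ADIRF with LOC124902474 (7.08), NR1D2 with NKIRAS1 (10.2) and the PER3 promoter (10.8). The PER1 promoter region was near none of the clock regions, with EIF5A2 closest at 16.5 places, then BCAT1 with LOC124902898 (19.6) and HDAC10 with TUBGCP6 (19.8).

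For peak width, the other value a list gives, no PER difference passed the test. The largest of the 4 was at the PER2 promoter, where the geometric mean was 1641 bp for U2OS against 971 bp for U2OS-CHRONO. The peak was narrower in U2OS-CHRONO at 5 of 6 times, all but 0 h, with a log2 difference of -0.76 ± 0.84 (SD, n = 6 times; exact paired permutation p = 0.094, adjusted p = 0.85). The PER3 promoter peak had a log2 difference of 0.39 ± 0.58, the PER1 upstream peak -0.18 ± 0.45 and the PER1 promoter region -0.09 ± 0.98. None passed the exact permutation test, and of all shared regions 1.2% were narrower at 6 of 6 times and 0.599% wider. Over all 167 shared regions the median log2 difference was 0.12, toward wider peaks in U2OS-CHRONO.

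The Myc library marked all 3 PER genes, as it did 10 of the 17 other core clock genes and 9.78% of protein-coding genes. It had 4 peaks at the PER genes, each in one of the 4 regions called in all BMAL1 libraries. Of the shared regions 70.7% had a Myc peak. The PER2 promoter peak (238288612 to 238289116) ranked 9 of 2487, the PER1 upstream peak (8156347 to 8156823) ranked 15 and the PER3 promoter peak (7783851 to 7784229) ranked 40. The fourth, 2.06 kb upstream of PER1, ranked 1011 with a score of 61.9. The PER1 promoter site had no Myc peak, and neither had the sites 1.32, 3.09 and 3.31 kb upstream or the sites 0.73 kb inside PER2 and 0.93 kb inside PER3.

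The order of the PER genes was thus different for the 2 antibodies. Among the 118 shared regions with a Myc peak, the PER2 promoter held place 7 in the Myc library and 27.0 ± 11.4 for BMAL1 in U2OS-CHRONO (SD, n = 6 times). PER1 upstream held place 12 for Myc and 6.67 ± 3.08 for BMAL1. The PER3 promoter held place 26 for Myc and 11.2 ± 2.64 for BMAL1. The PER2 promoter was above PER1 upstream in the Myc library and below it in 12 of 12 BMAL1 libraries. With 1 Myc library there is no test, and the library has no time label to set beside the BMAL1 times.

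**Figure D4:**
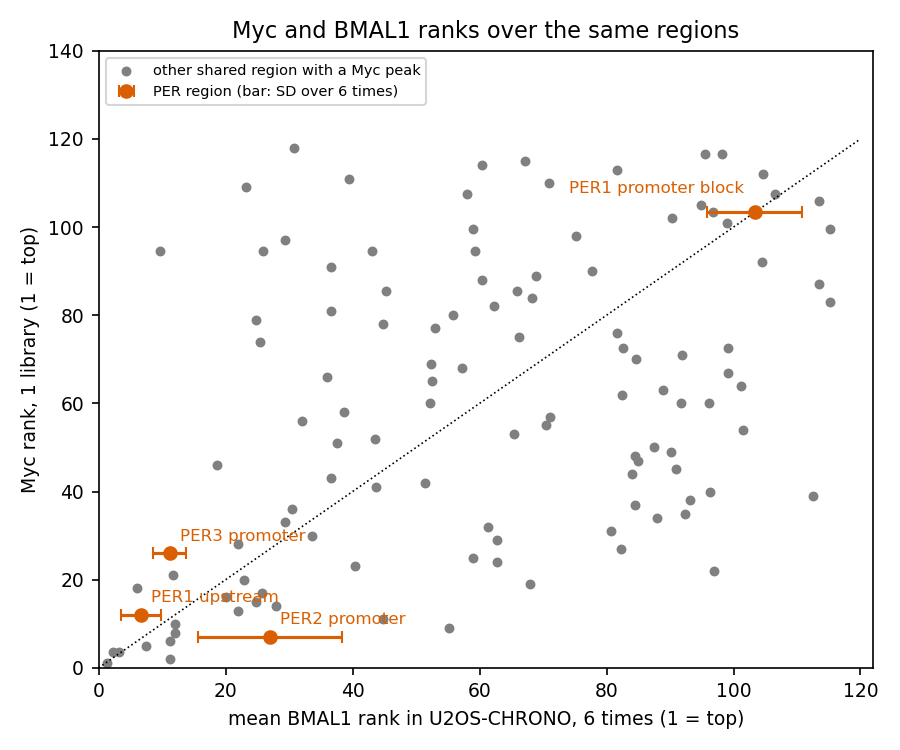
Rank in the Myc library (y) against the mean BMAL1 rank over 6 U2OS-CHRONO times (x), both among the 118 shared regions with a Myc peak. Horizontal bars on PER regions are SD over times. The PER2 promoter lies below the dotted line of equal ranks, at 7 for Myc and 27.0 for BMAL1, the PER1 upstream and PER3 regions lie above it, and the PER1 promoter region is close to it.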

How the data were processed

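The authors deposited 1 peak list per library in BED form with a score per peak. The score's definition is not given in the sources used here, and its lowest value was 50. Tools listed, per the submitters' processing notes, are HOMER 4.10.3, MACS 1.4.2 and bedtools, with the build hg38 and no roles. For aligner, threshold and control the sources used here give nothing. Inputs (3 libraries) were not analysed here. Gene positions, symbols and promoter sequences came from RefSeq tables of GRCh38.p14, the assembly of hg38.

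Starts were made 1-based. Peaks sharing at least 1 bp were joined into regions. A region's rank in a library is that of its highest-scoring peak. The test between lines was an exact permutation test, two-sided, which flips the sign of the differences at the 6 times (paired by the time labels), with p-values adjusted by Benjamini-Hochberg over all shared regions. A region was called at a p of 0.05 or less, which needs 1 direction at 6 of 6 times. The test was run on simulated scores with independent normal noise and a large planted change. That setting is simpler than these lists, so the run does not give the error rate here. Alternatives were lists trimmed to equal size, scores of 100 or more, no pairing, each time left out, other windows (gene alone, 10 kb), 50% overlap and whole-list percentiles. Separate sites and the number of peaks were added after seeing the data.

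Genes named were the PER genes, neighbours within 5 kb of their regions, the CRY and NR1D pairs, 20 core clock genes and the 3 most similar regions each. The members and lists were chosen with earlier results of these data known. Python 3.11.15, NumPy 2.4.6, pandas 2.3.3 and matplotlib 3.10.9 were used.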

Additional observations from a re-analysis of the deposited data

Results flagged for a closer look

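The 6 libraries of a line were examined for one far from the others in the place among shared sites and in peak width, over the 6 PER sites called in all 12 libraries. Dixon's test was used, which compares the gap between a value and its nearest neighbour with the whole range. Of 24 such sets 3 had a library apart. The test's rate of about 1 in 20 by chance holds for independent, normally distributed values. Here the values are places and widths, and neighbouring sites can share a peak. Whether 3 of 24 is more than chance gives therefore cannot be decided. In U2OS-CHRONO at 8 h the PER1 promoter site held place 130, against 150 to 159 at the other times. In U2OS at 20 h the site 2.06 kb upstream of PER1 held place 54, against 129 to 156; a peak of 1191 bp covered it there. In U2OS-CHRONO at 0 h the site 0.73 kb inside PER2 held place 12.5, against 118 to 165; the promoter peak of 2195 bp reached over it.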

How the results depend on the processing

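The difference in PER regions per library (0.17) turned to -0.33 at equal list sizes, -0.20 without 16 h and -0.83 with separate sites, always within the spread. Of 167 shared regions, 64 moved the same way at 6 of 6 times, 32 of them to a lower place in U2OS-CHRONO. With a score of at least 100 these were 17 and 10 of 53 regions, at equal list sizes 36 and 18 of 116, and by whole-list percentile 63 and 13. By whole-list percentile PER1 upstream gave -0.048 and the PER2 promoter -0.59 percentage points, each with its largest gap at 8 h. At equal list sizes the PER1 promoter region left the shared set, because its best U2OS-CHRONO peak at 8 h ranked 513 and 337 peaks were kept. PER1 upstream and the PER2 promoter stayed lower at 6 of 6 times there and with a score of at least 100. The PER3 difference turned to 0.60 without 0 h and 1.60 without 8 h. With a time left out, 5 pairs cannot give an exact permutation p under 0.0625, so those tests cannot pass and their counts of regions were not run; both PER1 regions and the PER2 promoter kept their direction. The PER1 promoter region differed by 9.50 places of 53 with a score of at least 100, by 4.85 percentage points of the whole list, by 83.7 places of 168 with 50% overlap, and by 70.4 to 241 with a time left out. The last was without 8 h, where 614 regions were shared; without any other time it was at most 81.6. Without pairing the number of regions differing in width was 8 in place of 3. The log2 width difference of the PER1 promoter region turned to 0.00488 without 0 h, 0.139 without 8 h and 0.0574 without 20 h. No paired analysis by replicate number was possible because each line and time had 1 library; the times were the pairs.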
